A study of Mus musculus with 2 samples.

Results

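Apoe, the liver X receptors and their sterol efflux targets were examined as 7 genes, taken by symbol from the deposited expression table: Apoe, Abca1, Abcg1, Nr1h2, Nr1h3, Mylip and Lpcat3. All 7 were found, among 23084 gene symbols. They were chosen by name, with the difference in FPKM between these libraries known (that of Apoe first of all), so every difference of theirs is a description and none is a test. The RNA came from mouse embryonic fibroblasts (MEF), primary cells grown from embryos, of the outbred ICR strain. All cells had been given calcein and cobalt chloride and were sorted by calcein brightness, which is lost when the mitochondrial permeability transition pore (mPTP), a channel of the inner mitochondrial membrane, opens. Bright cells formed the group with low mPTP opening (the low-opening library) and dim cells the group with high mPTP opening (the high-opening library), and neither was untreated or unsorted. Each group had 1 library, so no value has a replicate error. The number of embryos, cultures and sorts is not given in the sources used here.

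Cells cannot break down the cholesterol ring, so a surplus has to be esterified or exported. Oxysterols and other sterol signals switch on the liver X receptors (LXR), nuclear receptors that bind DNA as partners of the retinoid X receptors. Their targets raise export through ABC transporters to lipoprotein acceptors, lower lipoprotein uptake and change the fatty acids of membrane phospholipids. The SREBP factors work in the opposite situation, when membrane cholesterol is low, and raise sterol synthesis and lipoprotein uptake. Apoe is made by macrophages, glia and hepatocytes, and also by fibroblasts.

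The export genes were lower in the high-opening library, while the widely expressed receptor differed little. Apoe was 3.12-fold lower, Abcg1 3.01-fold lower and Abca1 2.04-fold lower. Nr1h2, Mylip and Lpcat3 lay within 1.19-fold of equality. Values are FPKM, fragments or reads per kilobase of exon scaled by library depth, and intervals are exact 95% intervals for counting error alone. The steps of the FPKM values gave the numbers by which reads were scaled, 15060435 for the low-opening and 16375735 for the high-opening library. Reads recovered over all genes summed to more, 16609267 and 18063774, so these numbers need not be the depths of the libraries. Markers of the labelled cell type were present. Col1a1, a fibrillar collagen chain, was at 3059 FPKM in the low-opening and 3204 FPKM in the high-opening library. Pdgfra, a receptor for platelet-derived growth factor, was at 32.5 and 39.0 FPKM. All 10 listed fibroblast markers were measured, 7 with a positive and 3 with a negative difference. Markers of other cell types were present too, among them the macrophage marker Lyz2 at 301 FPKM in the low-opening and 136 FPKM in the high-opening library.

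The stretch of DNA that LXR partners bind is a direct repeat of AGGTCA with 4 bases between the copies, and the windows before the gene starts were searched for it. The motif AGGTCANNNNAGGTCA was sought on both strands with up to 3 mismatches in its 12 fixed letters, in 300 bases around each RefSeq start (250 before and 50 after, build GRCm38.p6). Such a match was found in 21.9% of all 32851 windows, so a match by itself is common. Windows were at hand for 6 of the 7 members, with 9 starts in all. Abcg1 had no window and so was not searched. Abca1 was the 1 member of these 6 with a match. Among 12 other LXR targets with a window, Srebf1, Fasn and Arl4c had a match. The 3 sequences that follow are the matches of Abca1, Srebf1 and Fasn, shown because they are nearly the same while their genes differed in opposite directions; capitals mark both hexamers of the repeat.
Abca1: GGGTTActacCGGTCA
Srebf1: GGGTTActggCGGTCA
Fasn: GGGTTActacCGGTCA
They lie at chr4:53159947-53159962, chr11:60210638-60210653 and chr11:120824757-120824772, on the plus strand, which is the strand opposite to each gene. The Abca1 match ends 52 bases before the start of the transcript, the Srebf1 match 167 bases and the Fasn match 210 bases before it. The 14 letters that Abca1 and Srebf1 share, GGGTTACTNNCGGTCA, were then sought in all windows on both strands. They were in 3 windows (0.00913%), which are those of Abca1, Srebf1 and Fasn, and the first and second of these supplied the letters. A match is a description of the letters and does not show that a receptor was bound in these cells.

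The 250 bases before the starts of Abca1 (chr4:53159896-53160145, minus strand) and of Srebf1 (chr11:60210472-60210721, minus strand) are given next, read along the gene, with the repeat in capitals as its reverse complement. The 250 bases before the first Apoe start (chr7:19699189-19699438, minus strand) follow for comparison, in lower case throughout because no match to the repeat lay in them. All are RefSeq sequences of GRCm38.p6.
Abca1: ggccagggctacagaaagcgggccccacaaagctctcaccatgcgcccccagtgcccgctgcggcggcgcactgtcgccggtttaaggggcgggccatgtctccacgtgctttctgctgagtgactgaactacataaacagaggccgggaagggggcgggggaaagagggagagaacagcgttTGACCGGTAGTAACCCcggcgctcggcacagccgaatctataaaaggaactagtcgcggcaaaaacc
Srebf1: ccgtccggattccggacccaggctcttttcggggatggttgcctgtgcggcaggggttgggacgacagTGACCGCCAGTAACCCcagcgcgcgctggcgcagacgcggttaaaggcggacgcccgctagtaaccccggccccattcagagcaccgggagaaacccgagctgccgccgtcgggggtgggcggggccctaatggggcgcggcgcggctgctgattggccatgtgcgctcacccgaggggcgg
Apoe: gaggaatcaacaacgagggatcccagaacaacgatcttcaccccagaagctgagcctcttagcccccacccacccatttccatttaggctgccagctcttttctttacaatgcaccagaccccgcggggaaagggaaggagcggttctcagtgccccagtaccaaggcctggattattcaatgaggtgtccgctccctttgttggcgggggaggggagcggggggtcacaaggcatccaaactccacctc

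Apoe encodes apolipoprotein E, a secreted protein that takes up exported cholesterol and is a ligand of lipoprotein receptors (ENSMUSG00000002985, chromosome 7, 19696109 to 19699188, minus strand, 2138 nt of exon). It was at 158 FPKM (5091 reads) in the low-opening and 50.7 FPKM (1774 reads) in the high-opening library, with an interval of the low to high ratio from 2.96 to 3.30. Apoe was the most abundant of the 7 genes in both libraries. By level it held rank 235 of all symbols in the low-opening and rank 868 in the high-opening library. On the log2((high + 1)/(low + 1)) scale its difference was -1.62, the 31st lowest of 11898 measured genes, for which both libraries averaged 1 FPKM or more. No exon base of Apoe is shared with another annotated gene.

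Genes next to Apoe differed little. Of 8 neighbours listed, 5 were measured and 0 differed by 1.5-fold or more (median -0.11). Tomm40, the import channel of the outer mitochondrial membrane, was at 7.42 FPKM in the low-opening and 7.96 FPKM in the high-opening library. Nectin2, an adhesion molecule, was at 16.2 and 14.8 FPKM. Apoc1, an apolipoprotein whose gene shares LXR control with Apoe in macrophages, had 7 reads in the low-opening and 8 reads in the high-opening library. The interval of its high to low ratio, 0.333 to 3.40, included equality, so at this depth Apoc1 could not be told from no difference. It overlapped that of Apoe, 0.303 to 0.338, only at its lower edge. Such an overlap does not show that the ratios are alike, and the ratios of Apoc1 and Apoe were not tested against each other. Among other apolipoproteins 4 of 16 were measured, and 2 of these were lower by 1.5-fold or more. They were Clu, a secreted chaperone also called apolipoprotein J, at 18.8 and 5.60 FPKM, and Apod, a lipocalin, at 7.11 FPKM in the low-opening and 3.25 FPKM in the high-opening library. The remaining measured genes, Apoo and Apool, carry the name but encode subunits of the mitochondrial cristae complex. Apoo was at 9.68 and 8.22 FPKM and Apool at 5.09 and 5.34 FPKM.

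**Figure D1:**
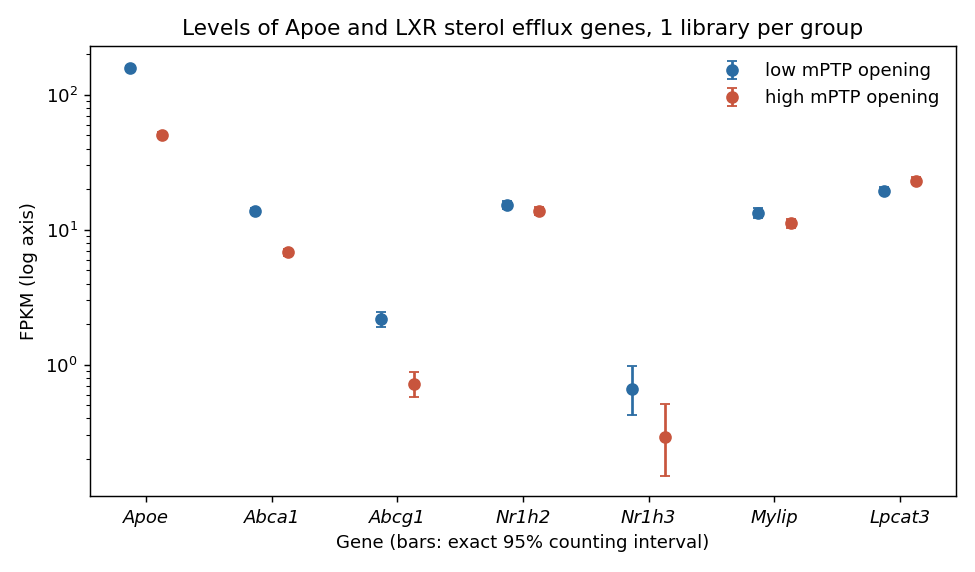
FPKM on a log axis of the 7 genes in the low (blue) and high (orange) mPTP opening library, with exact 95% counting intervals as bars. Apoe, Abca1 and Abcg1 lie apart between the libraries, at 158 against 50.7, 13.9 against 6.81 and 2.17 against 0.721 FPKM, and the points of Nr1h2, Mylip and Lpcat3 lie close together.

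Abca1 and Abcg1 encode the ABC transporters that pass cholesterol to apolipoproteins and to HDL particles. Abca1 (ENSMUSG00000015243, chromosome 4, 53030787 to 53159895, minus strand) was at 13.9 FPKM (2163 reads) in the low-opening and 6.81 FPKM (1155 reads) in the high-opening library. The interval of the low to high ratio was 1.90 to 2.19, and the log2 difference was -0.93. Abcg1 (ENSMUSG00000024030, chromosome 17, 31057698 to 31115777, plus strand) was at 2.17 FPKM (239 reads) and 0.721 FPKM (86 reads), with an interval from 2.35 to 3.91. The ratio of Abcg1 resembled that of Apoe and exceeded that of Abca1, with intervals of Abcg1 and Abca1 that did not overlap. Abcg1 was counted as measured only through its level in the low-opening library, and its reads were rounded because they did not come out whole.

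Of 20 other ABCA and ABCG transporters 6 were measured, and 0 of these differed by 1.5-fold or more in FPKM + 1. The median of these 6 was -0.12, a sign that turned positive at a mean of at least 5 FPKM, where only Abca3 and Abcg2 were left. After scaling to a common sum 1 gene of the list was lower. It was Abcg3, which is not among the 6 and passed the filter only after that scaling. Abca2, a transporter of endosomes and lysosomes, was the measured gene furthest from equality, at 4.85 FPKM in the low-opening and 3.40 FPKM in the high-opening library. Abca3, the lamellar body transporter of the lung, was at 7.06 and 5.91 FPKM, and Abca7, a close relative of Abca1, was at 4.04 and 3.95 FPKM. Abcg2, an exporter of drugs and dyes, was at 6.60 and 7.92 FPKM. Abcg5 and Abcg8, which together secrete sterols in liver and gut, had at most 3 reads each in either library. Among genes below the level of a measured gene, some lay as far apart as the export genes on few reads. Abcg3 was at 0.692 FPKM (37 reads) in the low-opening and 0.120 FPKM (7 reads) in the high-opening library, a low to high ratio of 5.75 (2.53 to 15.3). Abca8a had 27 and 6 reads, a ratio of 4.89 (1.98 to 14.5), and Abcg4 had 39 and 19 reads, a ratio of 2.23 (1.26 to 4.09). These 3 were named after their values were seen.

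The receptors were unequal in level. Nr1h2 encodes LXR beta, the form found in most tissues (ENSMUSG00000060601, chromosome 7, 44549616 to 44553951, minus strand). It was at 15.3 FPKM (772 reads) in the low-opening and 13.8 FPKM (760 reads) in the high-opening library. The interval of its low to high ratio, 0.998 to 1.22, included 1, and this depth could not show a difference. Nr1h3 encodes LXR alpha, the form of liver, fat and macrophages (ENSMUSG00000002108, chromosome 2, 91184061 to 91202834, minus strand). It was at 0.660 FPKM (25 reads) and 0.291 FPKM (12 reads), which is below the level of a measured gene. Its ratio of low to high was 2.27, with a wide interval from 1.10 to 4.95. Per kilobase, Nr1h3 was at 0.0432 of the level of Nr1h2 in the low-opening and 0.0211 in the high-opening library.

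Partners and cofactors of the receptors lay close together in both libraries. Of 13 listed genes 12 were measured and 0 differed by 1.5-fold or more. The median was -0.0048, a sign that turned positive under 3 other scalings. Rxra, the retinoid X receptor that pairs with LXR, was at 19.6 FPKM in the low-opening library with a high to low ratio of 0.919, and Rxrb had a ratio of 1.01. The furthest from equality of the 12 were the coactivator Ncoa1, at 5.29 FPKM in the low-opening and 4.57 FPKM in the high-opening library, and Rxra. Ncor1, a corepressor, was at 16.3 FPKM in the low-opening and 17.6 FPKM in the high-opening library.

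Mylip and Lpcat3 are LXR targets outside the export step, and neither was lower by the size seen in Apoe. Mylip encodes the ubiquitin ligase IDOL, which sends lipoprotein receptors, among them the VLDL receptor and the apoE receptor LRP8, to degradation (ENSMUSG00000038175, chromosome 13, 45389742 to 45412019, plus strand). It was at 13.3 FPKM (649 reads) in the low-opening and 11.2 FPKM (592 reads) in the high-opening library, a low to high ratio of 1.19 (1.06 to 1.33), with reads that were rounded. Lpcat3 encodes the acyltransferase that puts polyunsaturated chains into phospholipids (ENSMUSG00000004270, chromosome 6, 124663027 to 124704418, plus strand). It was the 1 member with a higher value in the high-opening library, at 23.1 FPKM (1237 reads) against 19.5 FPKM (960 reads), a high to low ratio of 1.18 (1.09 to 1.29). Of its exon sequence 10.2% is shared with Emg1, a ribosome biogenesis gene on the opposite strand at 10.2 FPKM in the high and 8.79 FPKM in the low-opening library. Whether counting used strand is not given in the sources used here, so these reads cannot be told apart.

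Relatives of Lpcat3 gave no common direction. All 12 listed acyltransferases were measured, 6 with a positive and 6 with a negative difference, and 0 differed by 1.5-fold or more in FPKM + 1. Lpcat2, which also makes platelet-activating factor in myeloid cells, was at 2.02 FPKM in the low-opening and 1.23 FPKM in the high-opening library, a ratio of FPKM itself of 1.65 (1.20 to 2.27), and with 0.1 FPKM added in place of 1 the list had 1 lower gene. Mboat1 was at 2.41 and 3.41 FPKM, and Lpcat1, the surfactant lipid enzyme, was at 9.02 and 9.21 FPKM. Lclat1, an acyltransferase of cardiolipin and phosphatidylinositol, was at 12.3 and 14.2 FPKM.

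Of the 6 measured members 3 were lower by 1.5-fold or more in FPKM + 1 and 0 were higher, where 4.38% of all 11898 measured genes were lower and 1.54% higher by that size. At 2-fold or more in FPKM + 1 1 member, Apoe, was lower, where 0.958% of measured genes were lower and 0.328% higher. In FPKM itself Abca1 and Abcg1 were also lower by more than that, at 2.04-fold and 3.01-fold. Since the members were chosen with these values known, nothing is read from that count. The order of the levels in the low-opening library was Apoe, Lpcat3, Nr1h2, Abca1, Mylip, Abcg1 and Nr1h3. In that library the counting intervals of Abca1, from 13.3 to 14.5 FPKM, overlapped those of its neighbours Nr1h2 and Mylip. In the high-opening library Abca1 came after Mylip, with an interval from 6.42 to 7.21 FPKM that no other member overlapped.

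**Figure D2:**
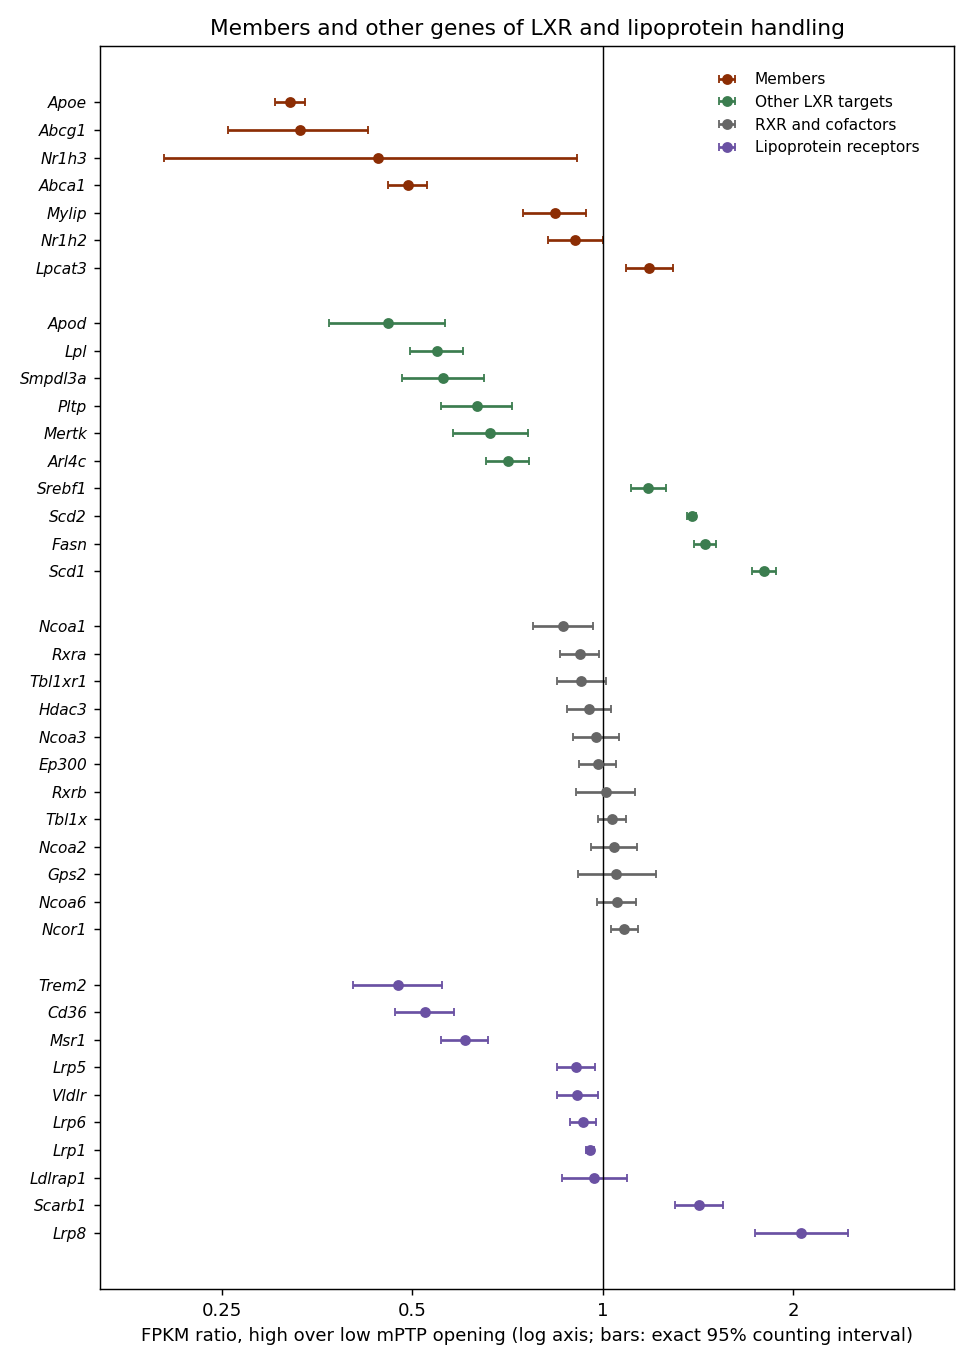
Ratio of FPKM, high over low mPTP opening, on a log axis, for the 7 genes and for measured genes of 3 related lists, with exact 95% counting intervals as bars. Scd1 at 1.80 and Lrp8 at 2.06 lie on the other side of equality from Apoe at 0.320 and Apod at 0.457, while the receptor partners lie near 1.

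Other LXR targets lay on both sides of equality. Of 18 listed genes 10 were measured, of which 4 were lower and 1 was higher by 1.5-fold or more (median -0.49). The 4 lower genes were Apod, Lpl, Smpdl3a and Pltp. Apod was 2.19-fold lower (1.78 to 2.71), and Lpl, the lipoprotein lipase, was at 7.24 FPKM in the low-opening and 3.95 FPKM in the high-opening library. Smpdl3a, a secreted phosphodiesterase, was at 15.2 and 8.52 FPKM, and Pltp, the phospholipid transfer protein of HDL, was at 15.2 and 9.61 FPKM. Arl4c, a small GTPase of cholesterol traffic, was at 17.6 and 12.4 FPKM, and Mertk, a receptor for dying cells on phagocytes, was at 7.81 and 5.18 FPKM, both short of 1.5-fold in FPKM + 1.

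The 4 measured LXR targets with a positive difference were Scd1, Fasn, Scd2 and Srebf1, genes of fatty acid synthesis that SREBP factors are also known to drive. Scd1, the stearoyl-CoA desaturase, was the 1 gene past 1.5-fold, with a ratio of 1.80 (1.72 to 1.88). Fasn, the fatty acid synthase, was at 37.2 FPKM in the high and 25.6 FPKM in the low-opening library, a ratio of 1.45 (1.40 to 1.51). Scd2 was at 442 and 319 FPKM, a ratio of 1.38 (1.36 to 1.40). The reads of Scd1 and Scd2 did not come out whole and were rounded, so their intervals are approximate. Srebf1, which encodes SREBP1, was at 23.9 and 20.3 FPKM, a ratio of 1.18 (1.11 to 1.26). Srebf1 and Fasn carry the same 14 letters before a start as Abca1, which was 2.04-fold lower. Srebf1 has other starts, whose reads the table does not separate.

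Lipoprotein receptors and their regulators also lay on both sides of equality, with 1 of 10 measured genes of the list higher and 3 lower by 1.5-fold or more. The higher gene was Lrp8, an apoE receptor, at 2.60 FPKM (448 reads) in the high-opening and 1.26 FPKM (200 reads) in the low-opening library. Vldlr, another receptor known as a Mylip substrate, was at 8.49 FPKM in the high and 9.32 FPKM in the low-opening library. The lower genes were Cd36 and Msr1, scavenger receptors of macrophages, and Trem2, a lipid and apoE receptor of macrophages that is also in the macrophage marker list. Cd36 was at 9.05 FPKM in the high and 17.3 FPKM in the low-opening library, Msr1 at 8.41 and 13.9 FPKM, and Trem2 at 2.85 and 6.01 FPKM. Lrp1, the most abundant receptor of the list, was at 124 and 130 FPKM. Scarb1, the HDL receptor, was at 9.39 and 6.62 FPKM.

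All 11 measured genes of cholesterol transit had a negative difference, but 0 reached 1.5-fold in FPKM + 1, with a median of -0.27 beside -0.02 for all measured genes. Of all 11898 measured genes 6494 had a negative and 5404 a positive difference. This list covers release of cholesterol from lysosomes, its storage as ester and its transfer between membranes. Npc2, the soluble cholesterol carrier of lysosomes, was at 93.5 FPKM in the high and 117 FPKM in the low-opening library, and its membrane partner Npc1 was at 7.54 and 9.16 FPKM. Nceh1, a cholesterol ester hydrolase, was at 5.80 and 8.32 FPKM, and Gramd1b, a sterol transfer protein, was at 2.12 and 3.26 FPKM. The low to high ratio of FPKM itself for Gramd1b was 1.54 (1.34 to 1.77), and with 0.1 FPKM added in place of 1 the list had 1 lower gene. Scarb2, a lysosomal membrane protein, was at 28.4 and 38.4 FPKM, and Lipa, the lysosomal acid lipase, was at 33.1 and 42.4 FPKM. Sterol synthesis genes lay on the other side, with 20 of 21 measured genes positive and 8 higher by 1.5-fold or more. That number was 5 with 5 FPKM added, 11 with 0.1 FPKM added and 16 after scaling to a common sum. Fdps, the farnesyl diphosphate synthase, was at 1.48 FPKM (102 reads) in the high-opening and 0.489 FPKM (31 reads) in the low-opening library. Its mean lay below the level of a measured gene, so it was in neither the 20 nor the 8. After scaling to a common sum it passed the filter and is in the 16. Fdps has processed copies that can share its reads. Idi1, the isopentenyl diphosphate isomerase, was at 44.03 FPKM in the high-opening and 23.7 FPKM in the low-opening library.

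The enzymes that make and remove oxysterols, the ligands of LXR, had no common direction among the 4 of 9 that were measured. Cyp11a1, the mitochondrial enzyme that cleaves the cholesterol side chain to start steroid synthesis, was at 4.58 FPKM (360 reads) in the high-opening and 1.11 FPKM (80 reads) in the low-opening library, 4.14-fold higher in the former (3.24 to 5.34). Cyp7b1, the oxysterol 7-alpha-hydroxylase, was at 6.03 FPKM in the high and 9.10 FPKM in the low-opening library. Ch25h, which makes 25-hydroxycholesterol, was at 1.72 and 2.56 FPKM, and the interval of its ratio, 0.436 to 1.04 on rounded reads, included 1. Cyp27a1, the mitochondrial 27-hydroxylase, had 22 and 35 reads and was below the level of a measured gene, and the interval of its ratio, 0.323 to 1.01, also included 1. Cyp39a1, a hydroxylase of 24-hydroxycholesterol, was at 3.22 and 2.11 FPKM.

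**Figure D3:**
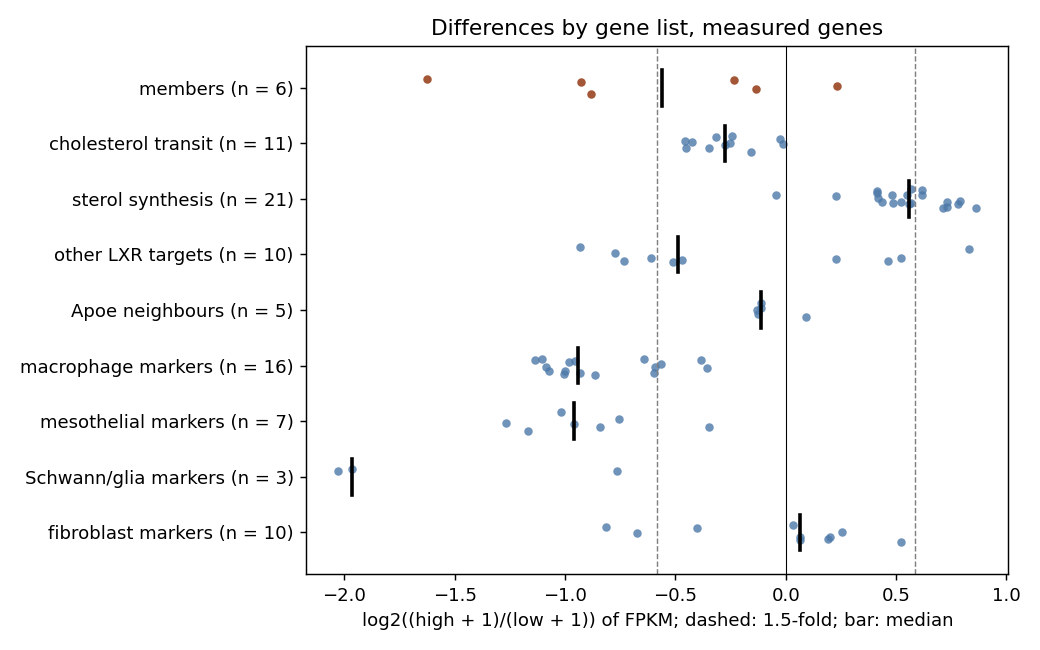
Difference on the log2(FPKM + 1) scale for each measured gene of 9 lists, with the list median as a black bar and 1.5-fold as dashed lines. Sterol synthesis genes lie to the right, with a median of 0.56, and cholesterol transit genes (-0.27), macrophage markers (-0.94) and mesothelial markers (-0.96) lie to the left.

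Markers of macrophages, Schwann cells and mesothelium were lower along with Apoe. Of 16 measured macrophage markers 13 lay below equality by 1.5-fold or more, and their summed level over 17 listed genes was 1016 FPKM in the low-opening and 506 FPKM in the high-opening library. None of these markers was at 0 in either library. Lyz2, lysozyme of myeloid cells, was at 301 and 136 FPKM, and Adgre1, the F4/80 antigen, was at 31.9 and 15.6 FPKM. The low to high ratios of the 16 macrophage markers ran from 1.49 to 2.47, and those of Apoe and of Abcg1 exceeded all of them as point values. The interval of Aif1, a macrophage calcium-binding protein, was 1.69 to 3.68 and overlapped those of Apoe and Abcg1. Those of Tyrobp, a signalling adaptor, at 1.87 to 2.61, and of Trem2, at 1.80 to 2.48, overlapped that of Abcg1. The ratio of Abca1 lay within the range of the macrophage markers, above 8 and below 8. Set against the summed macrophage markers, Apoe was at 15.6% in the low-opening and 10.02% in the high-opening library, Abcg1 at 0.214% and 0.143%, and Abca1 at 1.36% and 1.35%.

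Markers of Schwann cells and glia were at low levels but further apart, with a summed level of 12.4 FPKM in the low-opening and 1.94 FPKM in the high-opening library over 8 genes, none of them at 0. The 3 measured markers, Sox10, Cdh19 and S100b, were counted as measured only through their level in the low-opening library, so the filter fixed their direction. Sox10 and Cdh19 had a larger low to high ratio than Apoe. Sox10, a factor of neural crest and glia, was at 3.26 FPKM (150 reads) in the low-opening and 0.0900 FPKM (4 reads) in the high-opening library. Its reads were rounded, and the interval of its low to high ratio was wide, from 15.6 to 152. Cdh19 had 217 reads in the low-opening and 5 reads in the high-opening library. Mesothelial markers summed to 41.5 FPKM in the low-opening and 17.6 FPKM in the high-opening library, and 6 of 7 were lower by 1.5-fold or more, each with a smaller ratio than Apoe. Adipocyte markers summed to 7.94 and 4.48 FPKM, with 2 of 7 measured, of which 1, the adipogenic factor Cebpa, was lower by that size. None of the 8 hepatocyte markers was measured, and Alb had 0 reads in the low-opening and 1 read in the high-opening library. Of 6 endothelial markers 1 was measured, Kdr, at 1.09 FPKM in the low-opening and 1.01 FPKM in the high-opening library. Below that level endothelial markers went both ways, with Emcn at 9 reads in the low-opening and 48 reads in the high-opening library, 4.91-fold higher in the latter (2.38 to 11.4), and Tek at 65 and 24 reads, 2.94-fold lower (1.82 to 4.92). Of the 10 fibroblast markers 0 were higher and 2 lower by 1.5-fold or more, Dcn and Lum, 2 matrix proteoglycans, with a median of 0.07. In bulk RNA, fewer cells of a type and less RNA per cell cannot be told apart, and the part of these cell types in the values of Apoe, Abca1 and Abcg1 was not tested.

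The genes most like Apoe were sought among 6992 named genes that averaged 5 FPKM or more, by the distance of their log2 difference. Likeness over 2 libraries is a single number, and says only that the differences were of like size. The 5 nearest were Clu, Mmp13, Ctsf, Ccl3 and Upk3b, at distances from 0.036 to 0.35. Their differences all lay above that of Apoe, with Mmp13, a collagenase, at 17.3 FPKM in the high and 52.6 FPKM in the low-opening library. The 5 nearest to Abca1 were Plek, a phosphoprotein of platelets and leukocytes, Sfrp4, a secreted Wnt antagonist, Megf6, Unc93b1, which carries Toll-like receptors to endosomes, and Apod. Their distances were 0.0050 or less. Plek was at 9.79 FPKM in the high and 19.6 FPKM in the low-opening library, and Unc93b1 at 9.24 and 18.4 FPKM.

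**Figure D4:**
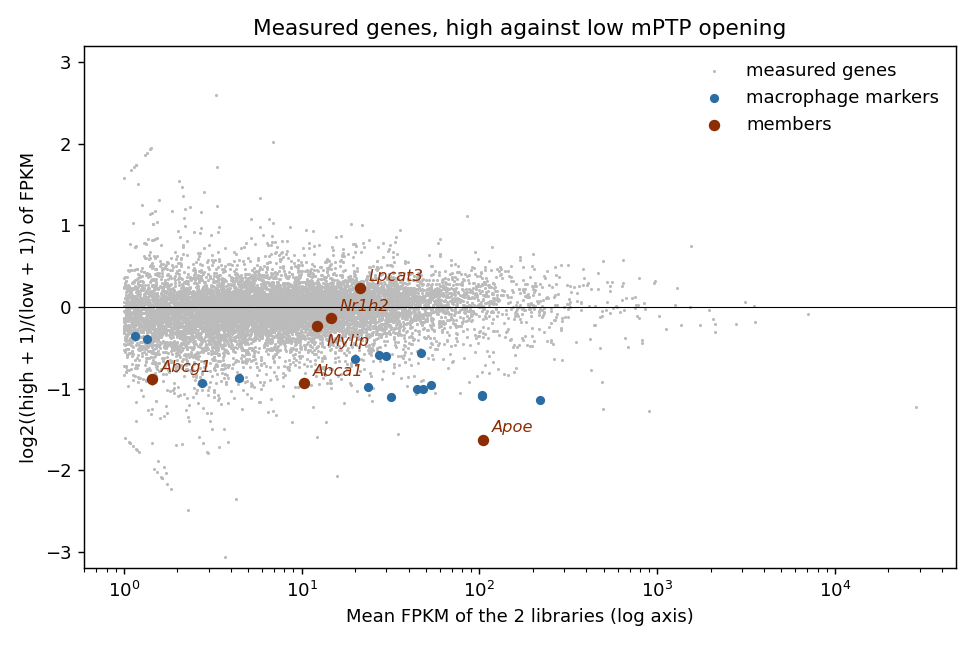
Difference on the log2(FPKM + 1) scale against mean FPKM (log axis) for 11898 measured genes (grey), with 16 macrophage markers (blue) and the 6 measured members (brown). Apoe lies at -1.62, below every macrophage marker, and Nr1h2, Mylip and Lpcat3 lie within the cloud of genes around 0.

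The annotation in the authors' table names 23 genes under cholesterol efflux, a list that holds Apoe, Abca1 and Abcg1 and was taken up after values were seen. Of these 11 were measured, 9 with a negative and 2 with a positive difference, where 6494 of all 11898 measured genes had a negative and 5404 a positive one. The 3 that were lower by 1.5-fold or more were Apoe, Abca1 and Abcg1. The positive differences were those of Scarb1 and of Abca5, a lysosomal transporter, at 3.68 FPKM in the high and 3.61 FPKM in the low-opening library. Soat1, which stores cholesterol as ester, was at 10.4 and 12.4 FPKM, and Stx12, a syntaxin of endosomes, was at 28.4 and 31.2 FPKM.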

How the data were processed

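RNA was taken with TRIzol and libraries were made with a TruSeq kit, per the labels' protocols. The authors deposited 1 table of FPKM values for 23097 genes. Per the submitters' processing notes, TopHat2 2.0.12, Bowtie2 2.2.3 and build mm10 were used. How genes were counted, with which annotation and strand setting, is not given in the sources used here, so overlapping genes and close paralogs may share reads.

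Rows of 1 symbol were added. Differences were log2((high + 1)/(low + 1)) of FPKM, which understates differences of low genes, while ratios are of FPKM itself. A measured gene had a mean of at least 1 FPKM, and 1.5-fold was the size rule. Groups of 1 library allow no p-value.

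FPKM times the exon length in GENCODE M21 gave whole reads within 0.05 reads for 93.2% (low) and 93.5% (high) of genes with up to 20 reads. These steps gave the scaling numbers and the exact intervals (Clopper-Pearson for ratios, Poisson for levels, 95%), which cover counting error only, since PCR copies are not independent molecules. Reads that did not come out whole were rounded, and intervals from them are approximate. For 1 kilobase of exon 3 reads are 0.199 and 0.183 FPKM.

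The members and the 17 lists were chosen with earlier results of these data known, and 1 list came from the table's annotation. Some genes of these lists are not reported here and are in no count over a list. Named genes were the members, up to 4 genes of each list with the largest differences, genes sharing a family, partner or locus with a member, cell type markers, and the 5 nearest genes to Apoe and to Abca1. Alternatives were pseudocounts, scalings, filters and a 2-fold size rule. Scripts were tested on simulated data. The scripts ran under Python 3.11.15 with SciPy 1.17.1, NumPy 2.4.6, matplotlib 3.10.9 and pandas 2.3.3.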

Additional observations from a re-analysis of the deposited data

How the results depend on the processing

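No member's difference changed sign under 2 other pseudocounts and 3 scalings. Abcg1 was at -1.47 at a pseudocount of 0.1 FPKM; at 5 FPKM it was at -0.33 and Abca1 at -0.68, as a pseudocount weighs most on low genes. Scaling to a sum of 1000000 added 0.12 (log2) to every ratio of FPKM and gave Apoe -1.51 and Lpcat3 0.36. It also raised all values, while the 1 FPKM added and the filter of 1 FPKM stayed the same and so weighed less. Abcg1 came to -1.175, and all results by the common sum hold both changes. Nr1h3 moved from -0.36 to -0.96 with 0.1 FPKM, -0.10 with 5 FPKM and -0.62 by the common sum. Of the members 2 were lower with 5 FPKM added or at a mean of at least 5 FPKM (which leaves Abcg1 out) and 4 by the common sum, against 3. The gene added by the common sum was Nr1h3, which passed the filter only after that scaling. At these settings 141, 213 and 1074 of all measured genes were lower and 48, 92 and 787 higher. How many genes are measured changes with the filter and with the common sum, and nothing is read from these counts. At 2-fold in FPKM + 1 1 member, Apoe, was lower, where 0.958% of measured genes were lower and 0.328% higher (114 and 39 genes). The numbers of all measured genes higher and lower by 1.5-fold were 323 and 880 when the pseudocount was 0.1 FPKM, 48 and 141 when it was 5 FPKM, 787 and 1074 after scaling to a common sum, 92 and 213 at a mean of at least 5 FPKM, and 381 and 826 with no filter, against 183 and 521. The other LXR targets had a median of -0.35 and 0 lower genes with a pseudocount of 5 FPKM, a median of -0.17 with no filter, and 3 higher genes after scaling to a common sum. Higher sterol synthesis genes numbered 5 (5 FPKM added), 11 (0.1 FPKM or median ratio), 12 (trimmed mean) and 16 (common sum), against 8. Lower macrophage markers numbered 8 with 5 FPKM and 15 with 0.1 FPKM added, against 13. They numbered 11 by the median ratio, by the trimmed mean and at a mean of at least 5 FPKM, and 10 by the common sum. Some list medians near 0 changed sign. Acyltransferases turned to 0.0089 by the median ratio, 0.012 by the trimmed mean and 0.10 by the common sum. At a mean of at least 5 FPKM they were at 0.027. Oxysterol enzymes turned to -0.23 by the common sum and -0.062 with no filter. At a mean of at least 5 FPKM they were at -0.52, the value of Cyp7b1, the only gene left. Lipoprotein receptors (0.0049) and the endothelial gene (0.010) turned by the common sum. ABCA and ABCG genes (0.0037) turned at a mean of at least 5 FPKM, where only Abca3 and Abcg2 were left. Receptor partners turned to 0.019 by the median ratio, 0.022 by the trimmed mean and 0.11 by the common sum. No paired analysis was possible because each group has 1 library, and no replicate could be left out. With 12 and 25 reads, Nr1h3 is limited by depth.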
